A study of Mus musculus with 20 samples.

Results

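The Cyp4a genes encode cytochrome P450 enzymes of the liver and kidney that hydroxylate fatty acids at the terminal (ω) carbon. The 6 genes described here, *Cyp4a10*, *Cyp4a12a*, *Cyp4a12b*, *Cyp4a14*, *Cyp4a31* and *Cyp4a32*, were chosen by symbol, together with the sum of *Cyp4a12a* and *Cyp4a12b*. All 6 were present among the 36128 genes with FPKM values (fragments scaled to exon length and to library size) and in the count tables of both strains, which list 25690 genes for B6 and 24722 for CAST. Expression was measured by RNA-seq of polyA RNA in 20 livers, 1 library per liver, from 5 male and 5 female C57BL/6J (B6) mice, a classical inbred strain, and 5 male and 5 female CAST/EiJ (CAST) mice, a wild-derived inbred strain. The mice were 8 weeks old, no treatment is named for any group, and the livers were taken in the same late-morning window per the methods of the study. The study asked how sex-biased liver expression is shared by, or differs between, the strains. The group and number of each liver follow its library title; a separate strain entry names the other strain for 10 livers, the 5 B6 females and the 5 CAST males, and was not followed. Per the methods, livers of all groups were collected on each of several days. The days are not assigned to livers in the labels, so no result could be split by day, and p-values measure the spread between livers of a group. Reads counted on genes ranged from 7969482 to 35328573 per library.

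ω-Hydroxylation is the entry to a side route of fatty acid breakdown: the ω-hydroxy acid is oxidised to a dicarboxylic acid, which is then shortened in the peroxisome. Cyp4a enzymes also turn arachidonic acid into 20-HETE, a lipid mediator of vascular tone. In rodent liver, *Cyp4a10* and *Cyp4a14* are classical targets of PPARα, the nuclear receptor for fatty acids, whereas *Cyp4a12a* is known as a male-predominant 20-HETE synthase of the mouse, and sex-specific liver genes in general follow the pattern of pituitary growth hormone release.

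The 6 genes lie within 322557 bp of chromosome 4, at chr4:114971651-115294207 of mm9, in the order *Cyp4a12a*, *Cyp4a12b*, *Cyp4a14*, *Cyp4a10*, *Cyp4a31*, *Cyp4a32*. *Cyp4a14* alone of these is on the minus strand. They fall into 3 sequence groups by coding identity. The coding sequences of *Cyp4a12a* and *Cyp4a12b* were 98.5% identical, with 23 of 1527 bases different. *Cyp4a10* was 97.2% identical to *Cyp4a32* and 96.6% to *Cyp4a31*, and *Cyp4a31* was 96.0% identical to *Cyp4a32*, whereas *Cyp4a14* shared at most 76.0% with any of the others. A stretch of 50 bases, the read length, from coding exon 6 of each gene is shown here because it holds 4 of the differences between *Cyp4a12a* and *Cyp4a12b*, the pair whose reads are hardest to separate. Bases in capitals differ from *Cyp4a12a*, or, in the line of *Cyp4a12a* itself, from *Cyp4a12b*; sequences are from mm9, 5′ to 3′ on the coding strand.
*Cyp4a12a*, chr4:114999237-114999286: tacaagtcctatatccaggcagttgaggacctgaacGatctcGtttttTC
*Cyp4a12b*, chr4:115105490-115105539: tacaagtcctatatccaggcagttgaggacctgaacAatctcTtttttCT
*Cyp4a10*, chr4:115197334-115197383: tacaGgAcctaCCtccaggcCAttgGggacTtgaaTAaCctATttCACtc
*Cyp4a31*, chr4:115242795-115242844: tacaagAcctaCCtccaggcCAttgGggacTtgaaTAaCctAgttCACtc
*Cyp4a32*, chr4:115283062-115283111: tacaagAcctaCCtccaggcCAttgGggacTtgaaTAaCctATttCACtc
*Cyp4a14*, chr4:115164787-115164836 (minus strand): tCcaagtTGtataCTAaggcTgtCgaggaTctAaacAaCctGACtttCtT

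Elsewhere the pair is often indistinguishable to a read of this length: 762 of 1429 windows of 50 coding bases (53.3%) were the same in *Cyp4a12a* and *Cyp4a12b*. Over the transcript with the longest coding sequence, 48.9% of the 50-base windows of *Cyp4a12a* and 49.4% of those of *Cyp4a12b* also occurred in a transcript of another protein-coding gene, in each case the other of the pair. The share was 46.8% for *Cyp4a32*, 31.5% for *Cyp4a31*, 30.5% for *Cyp4a10* and 0% for *Cyp4a14*. The transcripts of *Cyp4a31* and *Cyp4a32* hold coding sequence alone, so their shares do not cover untranslated parts, as the others do. Since only uniquely mapped reads were counted, the levels of the single genes with shared windows are uncertain. Sequence outside protein-coding transcripts was not searched, so the unique mapping of *Cyp4a14* in the whole genome was not tested. The windows were compared in mm9 alone, not in the genome used for CAST, and each as a single read, whereas the reads were paired. *Cyp4a12a* and *Cyp4a12b* are therefore also given as a sum. The directional library kit marks strand, but whether the counting used it is not given in the sources used here.

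Female livers of both strains had a higher summed FPKM of the Cyp4a genes than male livers, and of a different make-up. The sum and its shares rest on uniquely mapped reads, and the shared windows are more frequent in *Cyp4a12a* and *Cyp4a12b*, the main genes of males, than in *Cyp4a10* and *Cyp4a14*, so that the sum can be understated most in males. In B6, the summed FPKM of the 6 genes was 109 ± 24.8 in males and 312 ± 76.3 in females, and in CAST it was 187 ± 26.9 in males and 352 ± 129 in females (mean ± SD, n = 5 in each group). Female livers ranged from 225 to 420 in B6 and from 211 to 513 in CAST, above all males of the same strain, whose highest values were 138 and 207. Males of the strains were also separate, with CAST males at 140 or more. The sum was lower in males than in females by an exact permutation test on the difference of means (two-sided, n = 5 and 5) in B6 (adjusted p = 0.0106) and in CAST (adjusted p = 0.0106), and lower in B6 males than in CAST males (adjusted p = 0.0106). These carry an unadjusted p of 0.00794, the smallest that 5 against 5 livers allow. Females of the strains overlapped (exact permutation p = 0.556), and without CAST female 4 the difference of their means, −39.9 FPKM, became 0.420 FPKM. On summed counts scaled to library size but not to gene length, the sex difference in CAST had an adjusted p of 0.0529.

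The pair *Cyp4a12a* and *Cyp4a12b* held 68.7 ± 14.5% of the summed Cyp4a FPKM in B6 males but 0.0644 ± 0.0259% in B6 females. In CAST the shares were 87.5 ± 3.07% in males and 16.98 ± 9.30% in females. All 4 comparisons of this share passed the exact permutation test (n = 5 per group), with adjusted p = 0.0106 for both sex comparisons and for females of the strains, and adjusted p = 0.0397 for males of the strains. With 1 male liver left out, the last comparison no longer passed in 9 of 10 cases (adjusted p of up to 0.0794). *Cyp4a10* and *Cyp4a14* together made up 96.5 ± 1.57% of the sum in B6 females and 59.4 ± 14.7% in CAST females. *Cyp4a32* filled much of the rest in CAST females, at 21.9 ± 5.73%, against 2.32 ± 1.47% in B6 females.

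**Figure D1:**
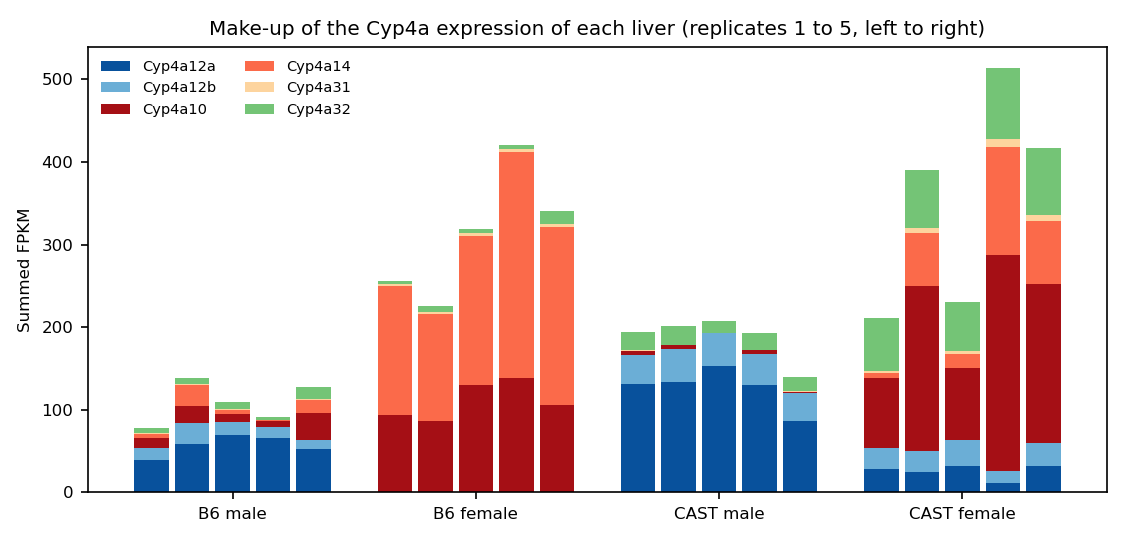
Stacked bars give the FPKM of the 6 Cyp4a genes in each of the 20 livers, and the height of a bar is their sum. In male livers *Cyp4a12a* and *Cyp4a12b* (blue) fill from 49.7% (B6 male 5) to 92.9% of the bar, B6 female livers almost wholly of *Cyp4a10* and *Cyp4a14* (red), and CAST female livers hold all of the groups.

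*Cyp4a12a*, the 20-HETE synthase, was the most abundant Cyp4a gene of male liver. Its FPKM in B6 males was 39.3, 58.0, 69.5, 65.3 and 52.1 in replicates 1 to 5, and in B6 females 0.209, 0.149, 0.203, 0.0392 and 0.112. In CAST males it was 131, 134, 153, 130 and 86.3, and in CAST females 28.05, 24.3, 32.1, 11.7 and 31.4. No groups overlapped, in the order CAST males, B6 males, CAST females, B6 females. For comparison, the sexes did not overlap in 7.51% of all genes in B6 and 6.43% in CAST, nor the strains in 28.2% of genes in males and 28.2% in females. The B6 female level rests on 55 reads over 5 livers, 3 to 17 in each. Males exceeded females 402-fold in B6 (log2 fold change 8.65, SE 0.23, adjusted p = 2.04e-14 by edgeR's quasi-likelihood test) and 4.60-fold in CAST (2.20, SE 0.20, adjusted p = 3.67e-07).

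*Cyp4a12b*, its near-identical neighbour, had a large male excess in B6 and a small one in CAST. B6 males had 14.5, 26.002, 15.4, 14.1 and 11.5 FPKM, and B6 females 0.0124, 0.0250, 0.0586, 0.0661 and 0.0628, from 17 reads in all and 1 to 5 per liver. CAST males had 35.8, 39.7, 39.3, 37.5 and 33.4 FPKM, and CAST females 25.5, 25.5, 30.8, 14.04 and 28.4. Again no groups overlapped within a strain, but the CAST sexes were close together. The male excess was 361-fold in B6 (log2 fold change 8.50, SE 0.29, adjusted p = 6.86e-13, edgeR), and 1.40-fold in CAST (0.49, SE 0.14), where neither the fold threshold nor the adjusted p of 0.0530 was passed. Over 19 alternative settings of the CAST comparison, the adjusted p was under 0.05 in 6 and the fold change under 2 in all.

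Within the pair, *Cyp4a12b* made up 22.4 ± 6.152% of the summed FPKM in B6 males, 23.03 ± 2.89% in CAST males and 49.99 ± 2.98% in CAST females. CAST females lay between 47.5% and 54.6%, above all CAST males, whose highest share was 27.9%. In an exact permutation test chosen after the values were seen (n = 5 and 5), the share of CAST males minus that of CAST females was −26.96 percentage points (adjusted p = 0.0159 over 2 comparisons). The share of B6 males minus that of CAST males was −0.656 percentage points (exact permutation, adjusted p = 0.873), and these groups overlapped. B6 females, with so few reads, were not tested.

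With the counts of the pair summed, the sex difference was again larger in B6 than in CAST. The sum was 395-fold higher in B6 males than females (log2 fold change 8.62, SE 0.19, adjusted p = 8.87e-16, edgeR) and 3.03-fold higher in CAST males than females (1.598, SE 0.17, adjusted p = 4.29e-06). Its FPKM was 73.1 ± 13.8 in males and 0.187 ± 0.0586 in females of B6. In CAST it ranged from 120 to 192 among males and was 50.4 ± 14.7 in females. The direction and the call of the sum do not depend on how reads were split between the copies.

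*Cyp4a10*, a fatty acid ω-hydroxylase and PPARα target, had the opposite sex difference. B6 males had 12.5, 20.6, 10.4, 7.03 and 32.4 FPKM and B6 females 93.9, 86.5, 130, 138 and 105. CAST males had 4.86, 3.93, 0.374, 5.13 and 2.11 FPKM and CAST females 85.2, 199, 87.7, 261 and 193. Every female liver was above every male liver of either strain, and the females of the strains overlapped. *Cyp4a10* was 6.501-fold lower in males in B6 (log2 fold change −2.70, SE 0.30, adjusted p = 1.08e-05, edgeR) and 53.8-fold lower in males in CAST (−5.75, SE 0.49, adjusted p = 1.99e-07).

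*Cyp4a14*, the second PPARα target and the member without shared 50-base windows, varied more among livers of a group than the other members in B6 males, CAST males and CAST females, by the coefficient of variation, but not in B6 females. Its FPKM was 4.77, 25.7, 4.55, 1.16 and 15.96 in B6 males and 155, 129, 180, 274 and 215 in B6 females. In CAST males it was 0.104, 0.324, 0.0852, 0.177 and 0.0205, from 1 to 60 reads per liver, and in CAST females 5.205, 64.9, 16.7, 131 and 76.1. B6 females were highest and CAST males lowest, with no overlap between the sexes of a strain. The lowest CAST female, however, was below 2 of the 5 B6 males, and the range among CAST females was 25.2-fold, against 2.12-fold among B6 females. *Cyp4a14* was 17.8-fold lower in males in B6 (log2 fold change −4.15, SE 0.56, adjusted p = 9.44e-05, edgeR) and 352-fold lower in males in CAST (−8.46, SE 0.77, adjusted p = 4.52e-07). Without B6 male 2 the B6 value became −4.81, and without CAST male 2 the CAST value became −9.28.

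*Cyp4a31*, a close paralog of *Cyp4a10*, stayed under 10 FPKM in every liver. It had 0.636, 1.14, 0.651, 0.225 and 1.49 FPKM in B6 males and 3.37, 2.71, 3.78, 2.79 and 4.04 in B6 females. CAST males had 0.124, 0.134, 0.0471, 0.0802 and 0.265 FPKM, from 54 reads in all, and CAST females 3.33, 5.88, 3.92, 9.90 and 6.73. Females were above males in both strains without overlap. *Cyp4a31* was 3.91-fold lower in males in B6 (log2 fold change −1.97, SE 0.30, adjusted p = 0.000305, edgeR) and 51.3-fold lower in males in CAST (−5.68, SE 0.35, adjusted p = 1.71e-09).

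*Cyp4a32*, the other close paralog of *Cyp4a10*, differed between the sexes in CAST and not detectably in B6. B6 males had 6.90, 6.88, 8.59, 3.44 and 14.5 FPKM and B6 females 3.45, 6.55, 4.73, 5.06 and 15.8. The B6 sexes overlapped, with a log2 fold change of 0.20 (SE 0.36, adjusted p = 0.819, edgeR) that became −0.14 without B6 male 5. CAST males had 22.6, 22.7, 14.1, 20.1 and 17.8 FPKM and CAST females 63.2, 69.6, 59.3, 85.2 and 80.9. All CAST females were above all other livers, and *Cyp4a32* was 3.88-fold lower in males than in females of CAST (−1.96, SE 0.13, adjusted p = 4.28e-09).

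**Figure D2:**
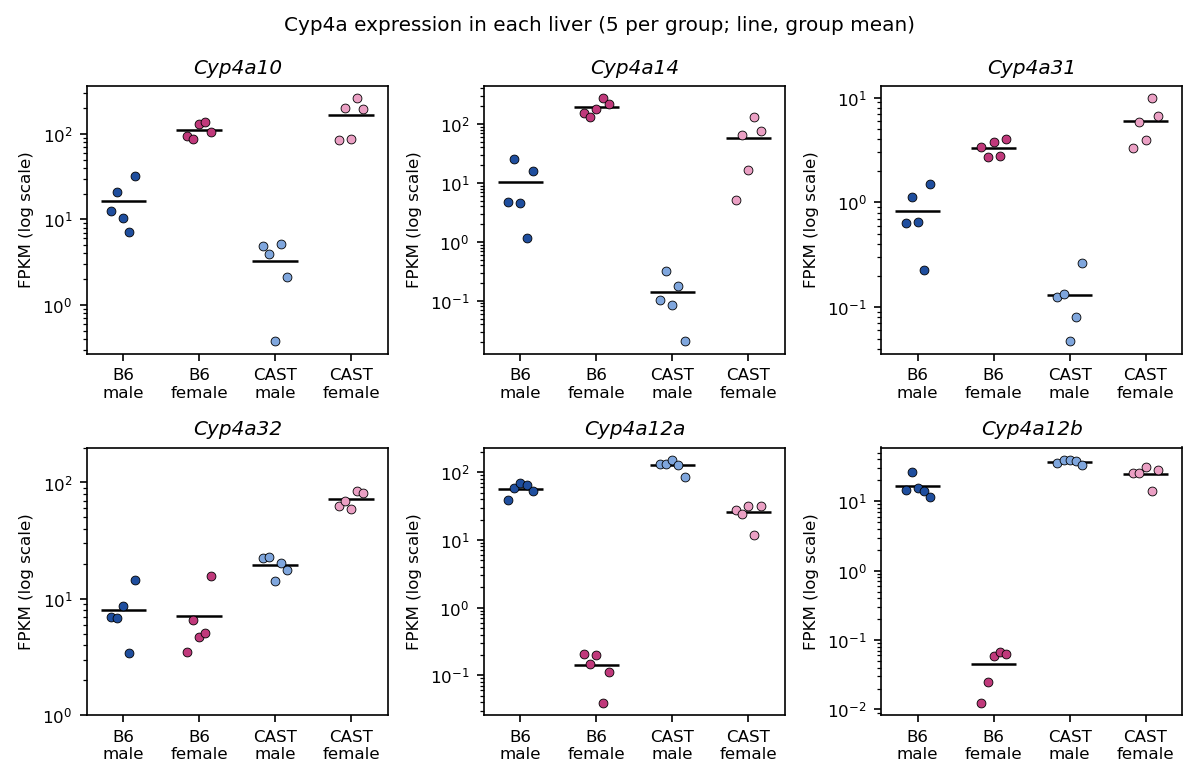
FPKM (log scale) of each Cyp4a gene in each liver, with 5 points per group in replicate order and a line at the group mean. *Cyp4a12a* and *Cyp4a12b* are lowest in B6 females, *Cyp4a10*, *Cyp4a14* and *Cyp4a31* have their lowest means in CAST males, and *Cyp4a32* overlaps between the B6 sexes.

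In B6, 5 of the 6 genes passed a fold change of 2 and an adjusted p under 0.05, against 2.4% of the 25690 genes tested. The male-biased ones were *Cyp4a12a* and *Cyp4a12b* (1.16% of all genes were male-biased), and the female-biased ones were *Cyp4a10*, *Cyp4a14* and *Cyp4a31* (1.24% of all genes). In CAST, 5 of the 6 passed, against 2.05% of 24722 genes. Here *Cyp4a12a* was the male-biased one (0.882% of all genes), and *Cyp4a10*, *Cyp4a14*, *Cyp4a31* and *Cyp4a32* were female-biased (1.17% of all genes). Thus 4 genes passed in the same direction in both strains, *Cyp4a12b* passed in B6 and *Cyp4a32* in CAST.

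**Figure D3:**
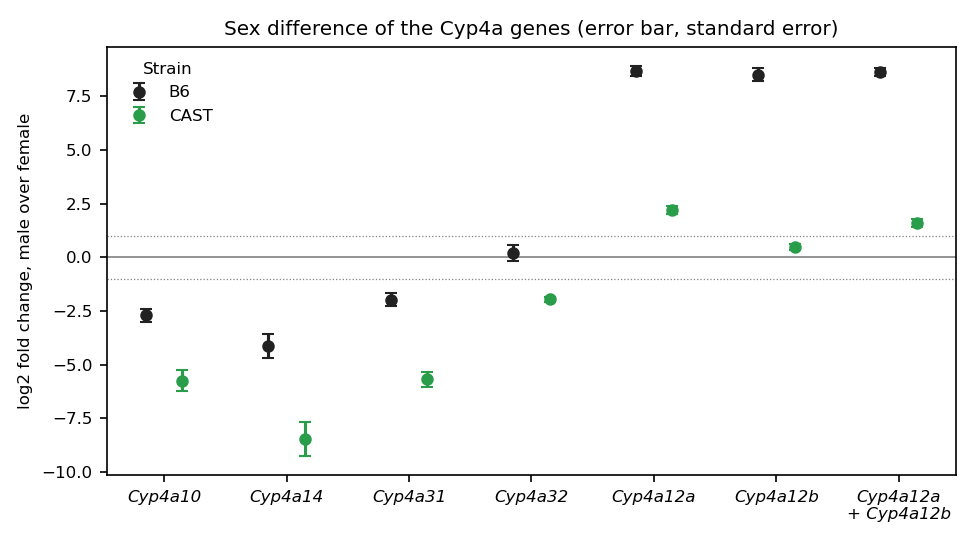
Log2 fold change of males over females for each Cyp4a gene and for the sum of *Cyp4a12a* and *Cyp4a12b* in B6 (black) and CAST (green), with standard errors derived from edgeR's F statistic and dotted lines at a fold change of 2. Each green point lies below the black point of the same gene.

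Whether the sex difference itself differed between the strains was tested by the interaction of strain and sex in a fit of all 20 livers. All 6 genes passed an adjusted p under 0.05, against 2.28% of 25779 genes, and in all 6 the male over female ratio was higher in B6 (1.44% of all genes, with 0.838% in the other direction). Over the whole table the split of 372 higher and 216 lower turned to 192 and 300 when library size alone was used as the scaling. Measured as B6 minus CAST in log2 fold change, the difference was 6.46 (SE 0.36, adjusted p = 2.26e-12) for *Cyp4a12a*, 8.02 (SE 0.37, adjusted p = 5.13e-14) for *Cyp4a12b* and 7.04 (SE 0.29, adjusted p = 6.05e-15) for their sum, by edgeR. These genes were thus more strongly male-biased in B6. For the female-biased genes the same sign means a stronger female bias in CAST. The difference was 3.06 (SE 0.59, adjusted p = 0.00380) for *Cyp4a10*, 3.71 (SE 0.54, adjusted p = 0.000133) for *Cyp4a31* and 2.17 (SE 0.43, adjusted p = 0.00534) for *Cyp4a32*, by edgeR. For *Cyp4a14* it was 4.30 (SE 1.03, adjusted p = 0.0221, edgeR), 3.645 without B6 male 2 and 5.11 without CAST male 2, with an adjusted p of at most 0.0493 when any liver was left out. That call was lost with limma on log2(FPKM + 0.1) (2.51, adjusted p = 0.266) and on log2(FPKM + 1) (0.49, adjusted p = 0.859). The 5 CAST males, at 0.0205 to 0.324 FPKM, lie near or below these added constants.

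Between strains, all 6 genes differed in males, against 23.8% of 25779 genes, with 3 higher in B6 (13.4% of all genes) and 3 higher in CAST (10.4%). *Cyp4a12a* was 2.13-fold lower in B6 males than in CAST males (log2 fold change −1.09, SE 0.20, adjusted p = 4.79e-05, edgeR), *Cyp4a12b* 2.21-fold lower (−1.15, SE 0.17, adjusted p = 4.29e-06) and *Cyp4a32* 2.35-fold lower (−1.23, SE 0.31, adjusted p = 0.00188). *Cyp4a10* was 5.29-fold higher in B6 males (2.40, SE 0.44, adjusted p = 5.47e-05), *Cyp4a31* 7.003-fold higher (2.81, SE 0.46, adjusted p = 1.08e-05) and *Cyp4a14* 60.6-fold higher (5.92, SE 0.85, adjusted p = 1.58e-06). The strains overlapped in *Cyp4a31* and *Cyp4a32* among males. The *Cyp4a12a* value is near the threshold and fell to −0.99 without B6 male 1, and that of *Cyp4a14* was 5.26 without B6 male 2 and 6.76 without CAST male 2.

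In females, 4 of the 6 genes differed between strains, against 24.4% of 25779 genes, with 1 higher in B6 (13.9% of all genes) and 3 higher in CAST (10.4%). *Cyp4a12a* was 188-fold lower in B6 than in CAST females (log2 fold change −7.55, SE 0.30, adjusted p = 2.87e-18, edgeR), *Cyp4a12b* 576-fold lower (−9.17, SE 0.31, adjusted p = 6.39e-20) and *Cyp4a32* 10.6-fold lower (−3.40, SE 0.33, adjusted p = 1.24e-09). None of these groups overlapped. *Cyp4a14* was 3.07-fold higher in B6 females (1.62, SE 0.60, adjusted p = 0.0322) with overlapping livers. That call was lost in DESeq2 (adjusted p = 0.0670) and on leaving out B6 female 4 (0.0693) or 5 (0.0520) or CAST female 1 (0.0603), 2 (0.0549) or 3 (0.0903). *Cyp4a31* had a fold change under 2 (−0.91, SE 0.29, adjusted p = 0.0136), which went just past 2 without CAST female 1 (−1.06) or 3 (−1.04). *Cyp4a10* did not pass (−0.66, SE 0.40, adjusted p = 0.197).

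Livers of a group also differed among themselves, and some of the female-biased genes deviated together. Deviations from the group mean on the scale log2(FPKM + 0.1) were correlated over the 20 livers for the 15 pairs of members, with permutations within groups. *Cyp4a10* and *Cyp4a14* had r = 0.638 and rho = 0.821 (adjusted permutation p = 0.0173 and 0.00405), and r = 0.772 without the 2 livers farthest from the median in *Cyp4a10*. Within groups, with 5 livers in each and given as a description, r was 0.903 in males and 0.816 in females of B6, and 0.421 in males and 0.954 in females of CAST.

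The pairs *Cyp4a10* with *Cyp4a31* (r = 0.637, rho = 0.629, adjusted permutation p = 0.0200 and 0.0430, r = 0.554 without the 2 farthest livers) and *Cyp4a14* with *Cyp4a31* (r = 0.754, rho = 0.690, adjusted permutation p = 0.0173 and 0.0352, r = 0.594) also passed. These relations were not alike in all groups, since within B6 females r was 0.132 for *Cyp4a10* with *Cyp4a31* and 0.135 for *Cyp4a14* with *Cyp4a31*, and within CAST males it was −0.379 for the latter pair. *Cyp4a32* varied with *Cyp4a10* (r = 0.479, rho = 0.624, adjusted permutation p = 0.0173 and 0.0236) and *Cyp4a31* (r = 0.591, rho = 0.558, adjusted permutation p = 0.0200 and 0.0430), but r was 0.342 and 0.298 without the 2 farthest livers, so these relations rest in part on them, and within B6 females r with *Cyp4a10* was −0.117. *Cyp4a10*, *Cyp4a31* and *Cyp4a32* share sequence windows, *Cyp4a14* does not. *Cyp4a12a* and *Cyp4a12b*, the pair with the most shared sequence, had r = 0.407 and rho = 0.269 (adjusted permutation p = 0.240 and 0.421). Within groups its r was 0.879 in males and 0.990 in females of CAST, and 0.178 in males and −0.599 in females of B6, the last with very few reads. No other pair passed in both measures. B6 male 4 was low and B6 male 5 high in all 4 of *Cyp4a10*, *Cyp4a14*, *Cyp4a31* and *Cyp4a32*.

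**Figure D4:**
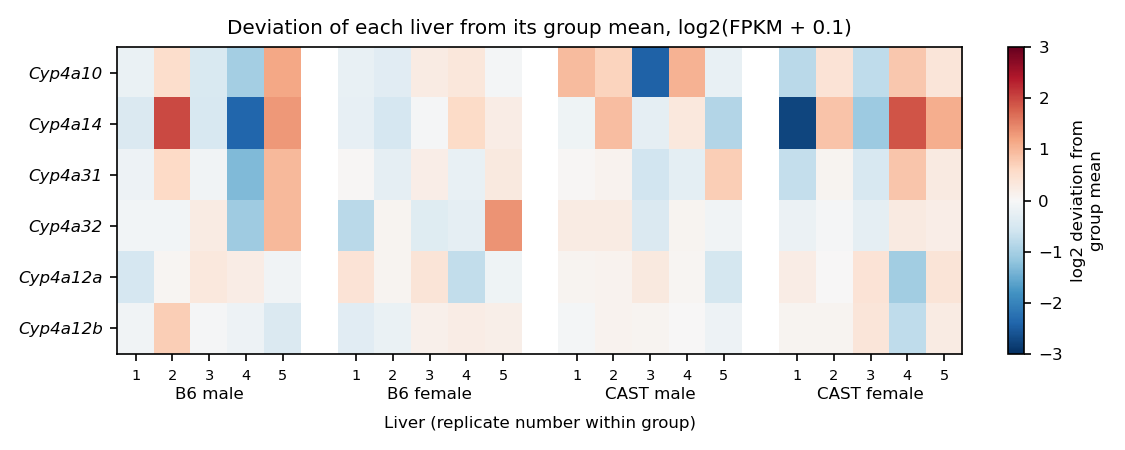
Colour gives the deviation of each liver from its group mean in log2(FPKM + 0.1) for the 6 Cyp4a genes, with livers in columns by group and replicate number. B6 male 4 is blue and B6 male 5 red in the rows of *Cyp4a10*, *Cyp4a14*, *Cyp4a31* and *Cyp4a32*; the added 0.1 shrinks deviations at levels near it, as for *Cyp4a12a* and *Cyp4a12b* in B6 females.

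Among 9063 genes at a mean of 1 FPKM or more, those whose group-centred levels followed each member most closely were named by Pearson's r over the 20 livers, as a description. *Cyp4a10* was followed most closely by *Acadl* (r = 0.832), the long-chain acyl-CoA dehydrogenase of mitochondrial β-oxidation and itself a PPARα target, then by *1110012L19Rik* (0.831) and *Car8* (0.806). *Cyp4a14* was followed by *Abcd2* (0.842), a peroxisomal transporter of very long-chain fatty acids, *Nnt* (0.738), the mitochondrial transhydrogenase, and *Hykk* (0.731). *Acadl* and *Abcd2* were also first on the scale log2(FPKM + 1), with r = 0.852 and 0.815, whereas some of the genes named below for the pair moved to rank 57 (*Nif3l1*), 58 (*Fam160b2*) and 162 (*C7*). *Hykk* came up again for *Cyp4a31* (0.763), after *Rtn4* (0.795) and *Ccng2* (0.766). The genes nearest to *Cyp4a32* were *Cdc14b* (0.860), *Glt1d1* (0.811) and *Fam134b* (0.803). *Cyp4a12a* had *Nif3l1* (0.803), *Cxxc1* (0.792) and *Fam160b2* (0.784), and *Cyp4a12b* had *Taco1* (0.714), *Sppl2a* (0.709) and *C7* (0.706), with no gene shared between the lists of the pair. The 20 libraries also differ in depth, and its part in these correlations was not tested.

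Other genes of the pathway were also called between the sexes. Of 32 genes listed for PPARα and its targets, 2 were called in B6 (2.4% of all genes were), both lower in males: *Vnn1*, the pantetheinase (log2 fold change −1.72, SE 0.16, adjusted p = 7.06e-07, edgeR), and *Pdk4*, a pyruvate dehydrogenase kinase (−1.07, SE 0.28, adjusted p = 0.0229). That count was 1 without B6 male 1 or 4 or B6 female 4 or 5, with limma, and with the replicate block, with or without filterByExpr. In CAST, 3 of 31 tested were called (2.05% of all genes were), all lower in males: *Cd36*, a fatty acid uptake receptor (−2.52, SE 0.25, adjusted p = 1.15e-06), *Acaa1b*, a peroxisomal thiolase (−1.33, SE 0.22, adjusted p = 0.000641), and *Vnn1* (−1.41, SE 0.33, adjusted p = 0.0126). The median log2 fold change of the list was −0.09 in B6 and −0.26 in CAST, against 0.02 and −0.01 over all genes. The interaction passed for 4 genes of the list (2.28% of all genes passed), or as few as 2 without B6 female 3 or CAST female 1. It passed for 3 genes in the direction of the Cyp4a members, among them *Cd36* (1.85, SE 0.31, adjusted p = 0.000763) and *Acaa1b* (1.52, SE 0.29, adjusted p = 0.00276), and for *Slc27a1*, a fatty acid transporter, in the other (−0.82, SE 0.19, adjusted p = 0.0202). *Cd36* was at 2.84 ± 0.645 FPKM in B6 males, 4.63 ± 0.505 in B6 females and 3.84 ± 1.53 in CAST males, but at 20.8 ± 5.57 in CAST females.

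Of 18 genes that act after ω-hydroxylation (alcohol and aldehyde dehydrogenases, peroxisomal importers and β-oxidation enzymes), 1 was called higher and 1 lower in B6 males (2.4% of all genes were called). *Scp2*, the peroxisomal thiolase and sterol carrier, was 2.49-fold higher in males (1.32, SE 0.09, adjusted p = 9.47e-09, edgeR), and *Abcd2* was 7.34-fold lower (−2.88, SE 0.27, adjusted p = 9.81e-07). In CAST, 4 were called (2.05% of all genes were), all lower in males, with *Abcd2* (−2.21, SE 0.16, adjusted p = 2.11e-08), *Aldh3a2*, the fatty aldehyde dehydrogenase (−1.35, SE 0.18, adjusted p = 7.81e-05), and *Acaa1b*, which is also on the PPARα list, the 3 with the smallest p. The list medians were 0.07 in B6 and −0.24 in CAST. The interaction passed for *Scp2* (0.90, SE 0.15, adjusted p = 0.000512, edgeR), *Acaa1b* and *Acaa1a* (0.52, SE 0.14, adjusted p = 0.0402), against 2.28% of all genes. In all of these the male over female ratio was higher in B6.

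*Por*, the reductase that passes electrons to all microsomal P450 enzymes, was called among the 6 P450 partner genes in CAST (2.05% of all genes were), where it was 2.48-fold lower in males (−1.31, SE 0.15, adjusted p = 1.24e-05, edgeR). It had 36.3 ± 7.89 FPKM in CAST males and 85.7 ± 18.4 in CAST females. *Por* was lower in B6 males too, by less than 2-fold (−0.66, SE 0.12, adjusted p = 0.00242, edgeR), and its interaction did not pass (0.67, SE 0.22, adjusted p = 0.114). Without CAST male 5 or CAST female 2, 2 partner genes were called between the CAST sexes. No partner gene was called in B6 (2.4% of all genes were), nor between strains (23.8% of all genes in males and 24.4% in females). Between females, however, 1 was called in 9 of the 20 fits with a liver left out. Of the other Cyp4 genes, 14 in the files, none of 10 tested was called between the B6 sexes (2.4% of all genes were) and 1 of 12 in CAST (2.05% of all genes were). This was *Cyp4a30b*, a further Cyp4a gene that is not one of the 6, at 3.20 ± 0.611 FPKM in CAST males, 0.364 ± 0.171 in CAST females and at most 0.0161 in any B6 liver (male over female in CAST 2.95, SE 0.22, adjusted p = 3.85e-08, edgeR). The interaction passed for 2 of 11 tested (2.28% of all genes passed), *Cyp4v3* (0.71, SE 0.13, adjusted p = 0.00162) and *Cyp4f15* (0.62, SE 0.16, adjusted p = 0.0415), but the count was 1 in 12 of the 20 fits with a liver left out.

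**Figure D5:**
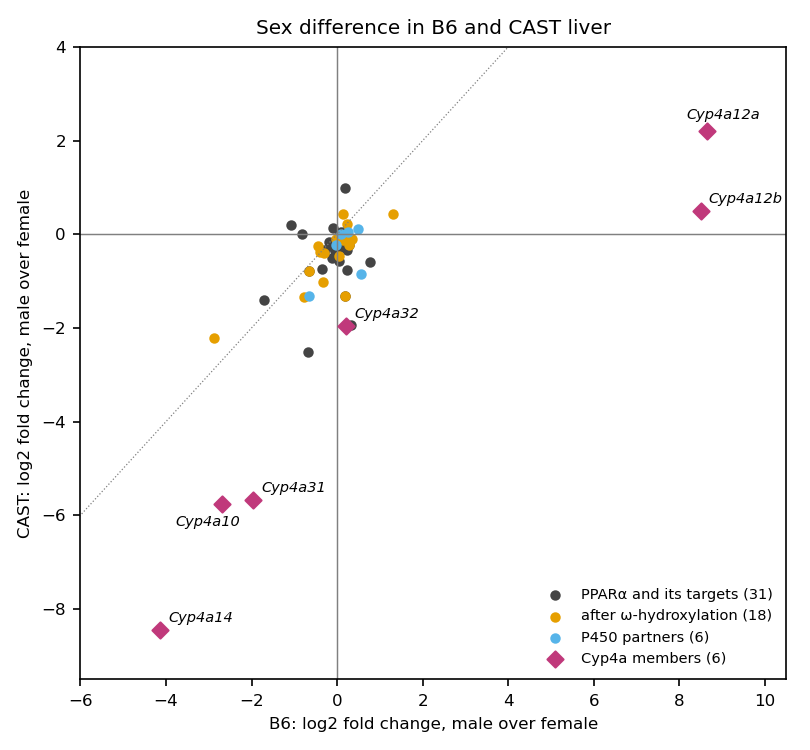
Log2 fold change of males over females in B6 (horizontal) and CAST (vertical) for the 6 Cyp4a genes (diamonds) and the genes of 3 pathway lists (dots; the number plotted is in the legend, some genes, such as *Acaa1b*, are shared between lists, and the CAST value of *Fabp1* rests on near-zero levels). All 6 diamonds lie below the dotted line of equal sex difference.

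Between strains, 7 PPARα-list genes were called higher in B6 males than in CAST males and none lower, of 32 tested (23.8% of all genes were called), and in females 8 were higher and 2 lower (24.4% of all genes were called). *Slc25a20*, the mitochondrial carnitine carrier, was 4.81-fold higher in B6 males (2.27, SE 0.10, adjusted p = 6.97e-17, edgeR) and 4.51-fold higher in B6 females (2.17, SE 0.10, adjusted p = 1.30e-16). *Vnn1* was 16.4-fold higher in males (4.04, SE 0.28, adjusted p = 9.44e-13) and 21.02-fold higher in females of B6 (4.39, SE 0.24, adjusted p = 5.63e-15). *Fabp1*, the liver fatty acid-binding protein, was listed at 1924 ± 317 FPKM in B6 males and 1551 ± 349 in B6 females but at 0 to 0.297 in all 10 CAST livers. The reads of the strains were mapped to different genomes, and the part of this in such a gap was not tested. Of the genes after ω-hydroxylation, 3 were higher and 1 lower in B6 males, and 1 higher and 1 lower in B6 females. *Crot*, the peroxisomal carnitine octanoyltransferase, was higher in B6 in both sexes (1.14, SE 0.11, adjusted p = 1.22e-09 in males and 1.33, SE 0.11, adjusted p = 5.82e-11 in females, edgeR), *Acaa1b* was higher in B6 males (1.77, SE 0.21, adjusted p = 4.62e-08), and *Adh4*, an alcohol dehydrogenase, was lower in both (−1.63, SE 0.12, adjusted p = 2.28e-12 and −1.33, SE 0.12, adjusted p = 1.50e-10). Among other Cyp4 genes *Cyp4f17* was lower in B6 in both sexes (−1.01, SE 0.11 and −1.03, SE 0.11), and *Cyp4f39*, at a mean under 0.1 FPKM in each group, was higher (1.28, SE 0.51, adjusted p = 0.0474 in males and 1.95, SE 0.52, adjusted p = 0.00316 in females, edgeR). The calls of *Cyp4f17* are close to the fold threshold, and that of *Cyp4f39* in males to the p threshold. With a liver left out, the number of other Cyp4 genes called between males fell from 2 to between 0 and 1 in 12 of 20 fits, and between females to 1 without B6 female 1 or CAST female 3.

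Cyp4a genes can vary over the day, so 15 clock genes were examined. Between the sexes 1 of the 15 was called in each strain (2.4% of all genes were called in B6 and 2.05% in CAST), *Bhlhe41* in B6 (2.28, SE 0.45, adjusted p = 0.00340, edgeR) and *Per3* in CAST (−1.13, SE 0.22, adjusted p = 0.00249), and none passed the interaction (2.28% of all genes did). These counts are unstable. With a liver left out, 1 to 2 were called in B6 and 0 to 2 in CAST, and 0 to 3 passed the interaction, where the count changed in 5 of 20 fits; with limma or filterByExpr none was called in B6. Between strains, 2 were higher and 5 lower in B6 males (23.8% of all genes were called), and 2 higher and 6 lower in B6 females (24.4% of all genes were called). *Per2* was lower in B6 in both sexes (−1.30, SE 0.20, adjusted p = 4.81e-06 in males and −2.13, SE 0.21, adjusted p = 1.73e-09 in females, edgeR), *Ciart* was lower in B6 males (−3.80, SE 0.60, adjusted p = 8.19e-06), and *Per3* was lower in B6 females (−2.60, SE 0.29, adjusted p = 1.88e-08). *Arntl* was at 1.72 to 4.76 FPKM in B6 livers and at 0 to 0.0628 in CAST livers, which, as for *Fabp1*, were mapped to another genome. The part of these differences in the strain differences of the Cyp4a genes was not tested.

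The tissue was liver by its markers, with 7 of 8 hepatocyte markers present at a summed level of 19140 to 34380 FPKM per liver, against 0.0164 to 0.274 for 6 markers of kidney proximal tubule, the other main site of Cyp4a expression. In bulk tissue, fewer cells of a type and less RNA per cell cannot be told apart. Between the sexes, Kupffer cell markers and part of the stellate cell markers were lower in males of B6, with a fold change under 2 or no passing p. The 5 Kupffer markers had log2 fold changes of −1.01 (*Marco*, adjusted p = 0.121, edgeR) to −0.71 (*Clec4f*, adjusted p = 0.000865), and the other 3 had adjusted p of at most 0.0123. Without B6 male 2 or B6 female 4, up to 2 of them were called. Of 6 stellate markers, *Ecm1* (−0.80, adjusted p = 2.33e-05), *Lrat* (−0.78, adjusted p = 0.00866), *Reln* (−0.73, adjusted p = 0.000240) and *Dcn* (−0.57, adjusted p = 0.00398) were lower in B6 males, by edgeR. *Pdgfrb* did not pass (−0.30, adjusted p = 0.235, edgeR), and *Col3a1* had a log2 fold change of 0.008 (adjusted p = 0.984). In CAST, *Lrat* (−0.75, adjusted p = 0.00226), *Ecm1* (−0.54, adjusted p = 0.00131) and *Reln* (−0.56, adjusted p = 0.0374) were lower in males, and no Kupffer marker passed an adjusted p under 0.05. The stellate markers *Dcn* (−0.26, adjusted p = 0.147), *Pdgfrb* (−0.10, adjusted p = 0.785) and *Col3a1* (0.14, adjusted p = 0.820) did not pass there, by edgeR. The hepatocyte marker *Alb* (−0.62, adjusted p = 0.000625) and the endothelial markers *Stab2* (−0.54, adjusted p = 0.000974) and *Clec4g* (−0.49, adjusted p = 0.00352) were also lower in B6 males, as was the hepatocyte marker *Ahsg* (−0.41, adjusted p = 0.0269), by edgeR. The other endothelial markers, *Kdr*, *Pecam1*, *Oit3* and *Lyve1*, did not pass, and *Lyve1* had a higher value in B6 males (0.48, adjusted p = 0.101, edgeR). The hepatocyte marker *Apoa1* was higher in B6 males (0.51, adjusted p = 0.0427), and *Alb* was lower in CAST males (−0.60, adjusted p = 0.00299), by edgeR. No hepatocyte, endothelial or lymphocyte marker was called between the sexes in either strain. The lymphocyte markers *Ms4a1* in B6 (−1.40, adjusted p = 0.123, edgeR) and *Nkg7* in CAST (−3.50, adjusted p = 0.179) had lower values in males by over 2-fold without passing the test. *Cd3e* in B6 (0.05) and *Cd79a* in CAST (0.09) had slightly higher values in males, also without passing. *Nkg7* was near the floor in CAST, with a mean of 0 FPKM in males and 0.0387 in females. *Sox9* of 6 cholangiocyte markers was called in B6, where 2.4% of all genes were (1.11, SE 0.24, adjusted p = 0.00682, edgeR, higher in males, a call lost without B6 male 3 or 4), as was *Lrp2* of the kidney list, at a mean under 0.1 FPKM. Between strains, all 5 Kupffer cell markers found were called higher in B6 in both sexes (13.4% of all genes were called higher in B6 males and 13.9% in B6 females), with summed levels of 12.03 to 23.7 FPKM in B6 males against 4.24 to 11.5 in CAST males, and of 29.3 to 34.1 in B6 females against 6.84 to 23.4 in CAST females. *Clec4f*, a receptor specific to Kupffer cells, was 2.63-fold higher in males (1.40, SE 0.22, adjusted p = 9.09e-06, edgeR) and 2.61-fold higher in females of B6. *Vsig4* (1.67 in males and 2.15 in females) and *Marco* (3.185 and 3.75) had larger log2 fold changes than *Clec4f*. Also called higher in B6, beside the same shares of all genes, were 3 of 5 lymphocyte markers in each sex, at summed levels of at most 2.101 FPKM, the hepatocyte marker *Serpina1a* in each sex, *Col3a1* in females (a call lost without CAST female 4 or 5), and cholangiocyte markers, 2 of 5 tested in males and 1 of 5 in females, with *Krt7* at 0 in all CAST livers. Between males, *Col3a1* was just under a fold change of 2 (0.98, adjusted p = 0.000738, edgeR), and 1 stellate marker was called in 5 of 20 fits with a liver left out. Of the kidney list, *Lrp2* was called higher in B6 males (a call lost without B6 male 2) and *Slc22a12* higher in CAST females, both at means under 0.1 FPKM. No endothelial marker was called between strains, although 1 was called between females without CAST female 3. The part of these markers in the sex and strain differences of the Cyp4a genes was not tested.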

How the data were processed

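PolyA RNA of 20 mouse livers was read at 50 nt from both ends. The authors mapped B6 reads to mm9, and CAST reads to a genome carrying CAST variants, with TopHat, and assigned uniquely mapped reads to genes with featureCounts. The counts per gene that the authors deposited are not normalized. The FPKM values that the authors deposited are scaled to exon length and library size. Of the deposited columns, 24 hold scaled counts or group medians and were not used, nor were the authors' fold changes and p-values.

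The members and gene lists were chosen with earlier results of these data known. All genes with a read were tested on counts in edgeR 4.0.16 under R 4.3.3, using TMM scaling, quasi-likelihood tests and adjustment by Benjamini-Hochberg. The sexes were compared within a strain on its 10 livers. Strains and the interaction were tested on all 20 livers over 25779 genes, without 2028 genes that are missing from the count table of one strain although their FPKM is not 0 there. Genes were called when they changed more than 2-fold and had an adjusted p under 0.05, and for the interaction by the latter alone. Log2 fold changes are of males relative to females, or of B6 relative to CAST. The SE given with them is the absolute log2 fold change divided by the square root of edgeR's F statistic. The summed *Cyp4a12a* and *Cyp4a12b* counts replaced both genes in a further fit. Sums and shares of FPKM were compared by exact permutation tests, and correlations with 100000 permutations within groups. Of each gene list, up to 3 called genes per comparison with the smallest adjusted p are named, and for each member the 3 genes with the highest r. No library was a copy of another of its group (lowest chi-square per degree of freedom 8.08). Sequences and positions are from the mm9 reference with its gencode annotation, aligned with MAFFT 7.526. The RefSeq promoter table held *Cyp4a32* alone of the 6 and was not used. Tables and plots were made in Python 3.11.15 (numpy 2.4.6; scipy 1.17.1; pandas 2.3.3; matplotlib 3.10.9). The fits were tested on simulated data with known changes.

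Alternatives tried were DESeq2 1.42.0; edgeR with the size factors of DESeq2, with library size as the sole scaling, with filterByExpr or with its exact test; limma 3.58.1 on log2(FPKM + 0.1) and log2(FPKM + 1); rescaled FPKM and counts; a replicate block; and each liver left out. The share of *Cyp4a12b* within the pair, and the block together with filterByExpr, were chosen after the data were seen.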

Additional observations from a re-analysis of the deposited data

Results flagged for a closer look

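Among 40 groups of 5 livers, 4 held a liver that stood apart from the rest by Dixon's criterion, which chance meets in about 1 group in 20. B6 male 2 had 26.002 FPKM of *Cyp4a12b*, above the other B6 males. B6 female 5 had 15.8 FPKM of *Cyp4a32*, above the other B6 females. CAST male 5 had the lowest summed Cyp4a FPKM of its group, 139.9. CAST male 3 had the highest share of *Cyp4a12a* and *Cyp4a12b* in the sum among CAST males, 92.95%.

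The sex difference of every member differed between strains by the interaction of strain and sex. Measured as B6 minus CAST in log2 fold change of males over females, it was 3.06 for *Cyp4a10*, 6.46 for *Cyp4a12a*, 8.02 for *Cyp4a12b*, 4.30 for *Cyp4a14*, 3.71 for *Cyp4a31*, 2.17 for *Cyp4a32* and 7.04 for the sum of *Cyp4a12a* and *Cyp4a12b*.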

How the results depend on the processing

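Over 35 log2 fold changes (6 members and the sum of the pair in 5 comparisons) and 854 values under alternative settings, 841 kept their direction and their side of the thresholds, 10 lost a call, 2 gained one and 1 turned, *Cyp4a32* between the B6 sexes (−0.137 without B6 male 5, and 0.731 without B6 female 5). The other exceptions are named beside their results, with *Cyp4a31* in males of the strains under limma on log2(FPKM + 1) (0.654). With each liver left out, the number of members called stayed at 5 in B6, 5 in CAST and 6 for the interaction, and was 5 to 6 between males and 3 to 4 between females. Summed Cyp4a counts scaled to library size differed by −782.3 between CAST sexes. With 1 liver left out, the summed FPKM differed between females of the strains by −75.3 to 0.420, the share of the pair between males by −23.4 to −14.0 percentage points, and the share of *Cyp4a12b* within the pair between males by −2.80 to 0.568 percentage points. Over all genes, calls in B6, CAST, males and females were 322, 303, 3489 and 3535 with limma on log2(FPKM + 0.1), and 152, 149, 1645 and 1646 on log2(FPKM + 1), against 617, 508, 6146 and 6281. The interaction had 588 calls, 1172 in DESeq2 and 356 to 768 with a liver left out. Few reads limit *Cyp4a12b* in B6 females and *Cyp4a14* in CAST males.

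The replicate numbers did not pair the livers: same-numbered livers of any 2 groups had deviations correlated between −0.185 and 0.345, and at most 2 of 5 livers correlated best with their own number. Between CAST males and females, 4 of 5 pairs were above 0.1 (0.108 to 0.345) and the fifth was at −0.0628. With the replicate block and filterByExpr, the same numbers of members were called as without (5, 5, 6, 4 and 6). The replicate block over all genes gave far smaller p-values (8.31e-170 for *Cyp4a10* in B6, against 0.00112 with filterByExpr), and the cause was not tested.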
